A study of Drosophila melanogaster with 78 samples.

Results

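The unc-5 gene of Drosophila melanogaster encodes the repulsive receptor for netrins, and it is represented by 3 of the 13966 probe sets tested, 142635_at, 147245_at and 151656_at. These are all probe sets that the platform annotation names unc-5, and the gene is 1 of 10844 genes with a single name on the array. The gene (Dmel_CG8166) lies, by RefSeq's annotation of assembly Release 6 plus ISO1 MT, on chromosome arm 2R between positions 15340472 and 15368300, a span of 27829 bases with 2 RefSeq transcripts. The end of the span overlaps that of Pms2, a mismatch repair gene that starts at 15368074. Which exon or transcript each probe set reads was not analysed here, so each probe set was described on its own and its level was compared only with itself in other groups.

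Netrins are secreted guidance cues made at the ventral midline of the fly embryo. Growth cones that carry the receptor Frazzled are drawn towards netrin, while growth cones that carry Unc5 are driven away from it. In the Drosophila embryo Unc5 is known from motor axons and peripheral glia, and it also acts in the dorsal vessel, the larval heart. When it is forced on neurons that normally cross the midline, they are kept from crossing.

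RNA was taken from whole embryos at stage 15, when the main axon tracts are laid down, and 78 arrays fall into 18 groups by their titles. There are 5 arrays of UNC5, of WT, of slit.robo, of UC2x, of URyf.mef and of URyf. The remaining groups have 4 arrays, namely slit and slit/WT, comm/WT and comm, robo/WT and robo, robo2, robo12, UR2, UR, UC and FRM. The design text speaks of mutants and transgenics of axon guidance genes in different dosages, and the groups named slit, robo, robo2 and comm carry the names of such genes. The labels give no alleles, no transgene, no promoter or driver and no number of embryos, and they do not expand UNC5, UC, UR, FRM or the names derived from them. Nor do they say what /WT stands for in comm/WT, robo/WT and slit/WT. Titles call the replicates biological and descriptions call them technical, so p-values may measure technical spread only. In whole embryos, fewer cells of a type and less RNA per cell cannot be told apart.

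The deposited intensities had medians between 810.4 and 857.3 per array, and no 2 arrays were identical. All values below are log2 intensities, so that a difference of 1 is a doubling, and the number of arrays limits the precision. Of the 78, 6 arrays stood apart from their groups by the SD of their log2 values, and WT replicate 1 is one of them. As a check of the tissue, the muscle gene up had a median level of 13.82, the glial gene repo 8.79, the neuronal gene elav 8.25 and the heart gene Hand 7.75. The last 3 lie in the dim part of the array, at percentiles 29.5, 23.3 and 14.7 of mean level, and the table has no detection call.

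In UNC5, the group that bears the gene's name, the unc-5 transcript was higher than in WT at all 3 probe sets, and higher than in any other array of the series. At 142635_at the UNC5 arrays measured 13.20, 13.29, 13.26, 13.25 and 13.28, and the WT arrays 11.65, 11.47, 11.39, 11.31 and 11.42. The groups were far apart, and the UNC5 arrays lay closer together, with an SD of 0.03 against 0.13 (n = 5 each). The change was 1.81 ± 0.06 (SE of the fit, 3.5-fold, adjusted p = 6.5e-39 by limma).

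At 151656_at the UNC5 arrays measured 11.53, 11.69, 11.73, 11.50 and 11.26, and the WT arrays 8.10, 8.90, 8.85, 8.68 and 8.40. Again no array overlapped, although WT had an SD of 0.34 (n = 5), the highest of the 18 groups at this probe set. The change was 2.96 ± 0.13 (7.76-fold, adjusted p = 8.4e-30 by limma).

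At 147245_at the UNC5 arrays measured 10.46, 10.28, 10.34, 10.29 and 10.37, and the WT arrays 9.92, 9.59, 9.70, 9.84 and 9.86. The groups did not overlap here either, but the gap was the narrowest. The change was 0.57 ± 0.07 (1.48-fold, adjusted p = 3.7e-10 by limma). Calls were common in this comparison, since 54.2% of all probe sets passed the threshold of 0.05 and 21% passed it as higher, so 3 calls of 3 are read by their size rather than their number. By change against WT, 151656_at ranked 2 of 13966, 142635_at ranked 13 and 147245_at ranked 509.

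The probe sets of unc-5 did not rise by the same amount. The within-array difference of 142635_at minus 147245_at was 2.91 ± 0.10 (SD, n = 5) in UNC5 and 1.67 ± 0.16 (n = 5) in WT, a difference of 1.24 (exact permutation test, two-sided, adjusted p = 0.0079 over the 3 pairs). For 142635_at minus 151656_at it was 1.72 ± 0.19 in UNC5 and 2.86 ± 0.43 in WT, a difference of -1.15 (exact permutation test, adjusted p = 0.0079). For 147245_at minus 151656_at it was -1.19 ± 0.22 in UNC5 and 1.20 ± 0.46 in WT, a difference of -2.39 (exact permutation test, adjusted p = 0.0079). For 5 arrays against 5, 0.0079 is the smallest p this test can give. The order of the changes was thus 151656_at, 142635_at and 147245_at, and every pair of neighbours in that order differed by more than the arrays spread. With the SD of each array's log2 values as a covariate, the changes in that order were 2.37, 1.91 and 0.84. The differences between the probe sets were smaller there and were not tested with this covariate.

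**Figure D1:**
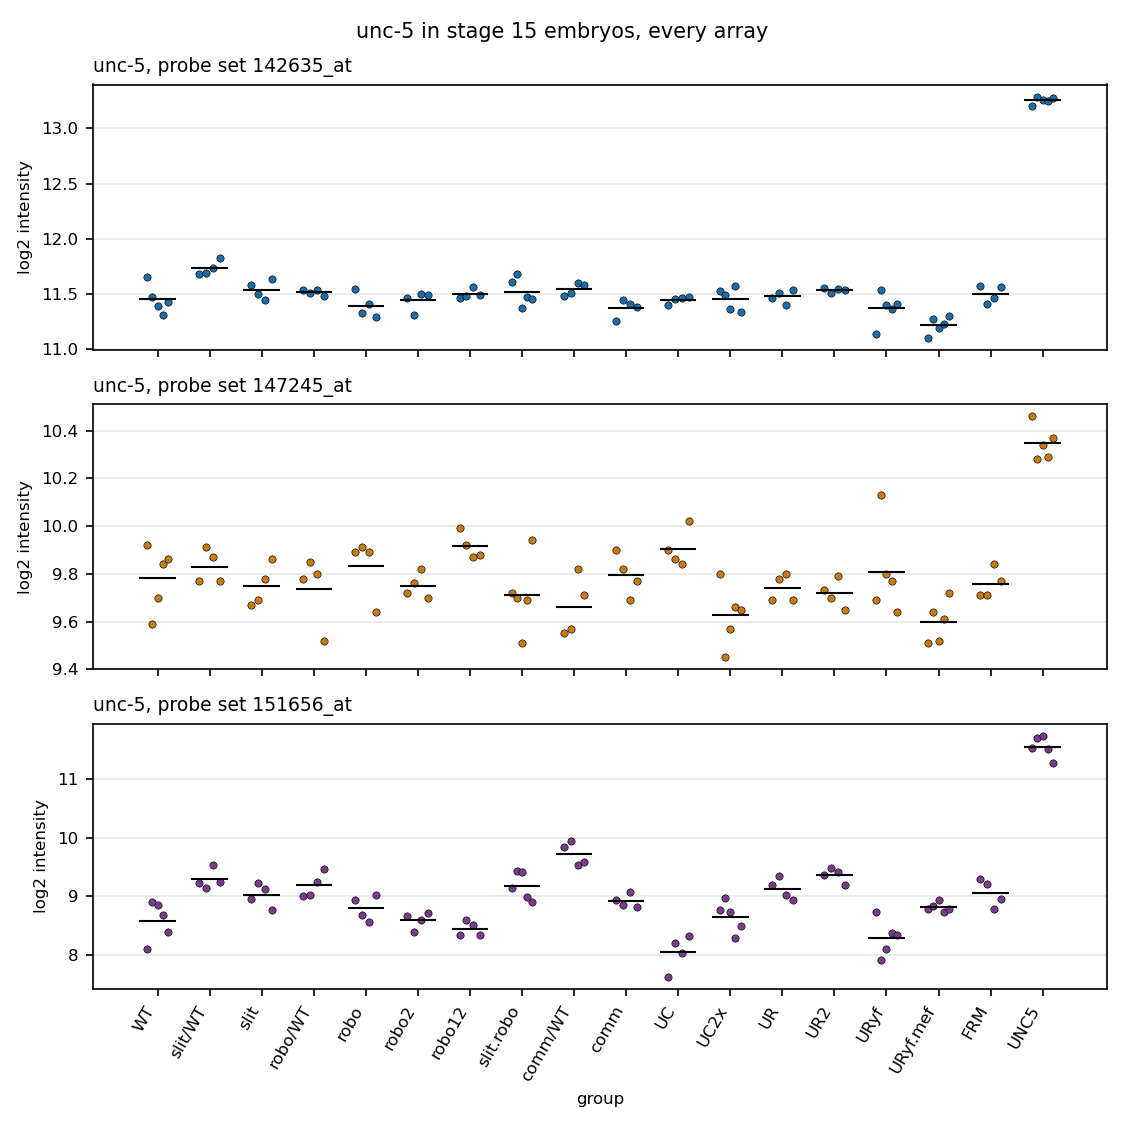
Log2 intensity of unc-5 in every array (points) by group (x axis) at each of the 3 probe sets, with the group mean as a bar. The 5 UNC5 arrays lie above all 73 other arrays in each panel, from 13.20 at 142635_at, from 10.28 at 147245_at and from 11.26 at 151656_at.

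The rise did not rest on WT as the reference. The lowest UNC5 array lay above all 73 arrays of the other groups at each probe set, by 1.39 at 142635_at, 1.31 at 151656_at and 0.15 at 147245_at. Against the mean of the other 17 groups, unc-5 was higher by 2.65 ± 0.10 at 151656_at (6.29-fold, adjusted p = 3.9e-35 by limma), 1.79 ± 0.04 at 142635_at (3.45-fold, adjusted p = 1.9e-47) and 0.59 ± 0.05 at 147245_at (1.5-fold, adjusted p = 5e-15). Of all probe sets 23.9% were called in this comparison. Here 151656_at ranked 1 and 142635_at ranked 4 by size. Between them stood 143339_i_at, which has no single gene name (2.42), and Jon99Fi, a digestive protease of the midgut (2.24), both named after their values were seen.

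Against UR, the group with which 14.9% of probe sets differed, unc-5 had the highest changes on the array. It was higher by 2.42 ± 0.14 at 151656_at (5.34-fold, adjusted p = 3.3e-23 by limma), by 1.78 ± 0.06 at 142635_at (3.43-fold, adjusted p = 8e-37) and by 0.61 ± 0.07 at 147245_at (1.52-fold, adjusted p = 2.8e-09). These changes ranked 1, 2 and 36.

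**Figure D2:**
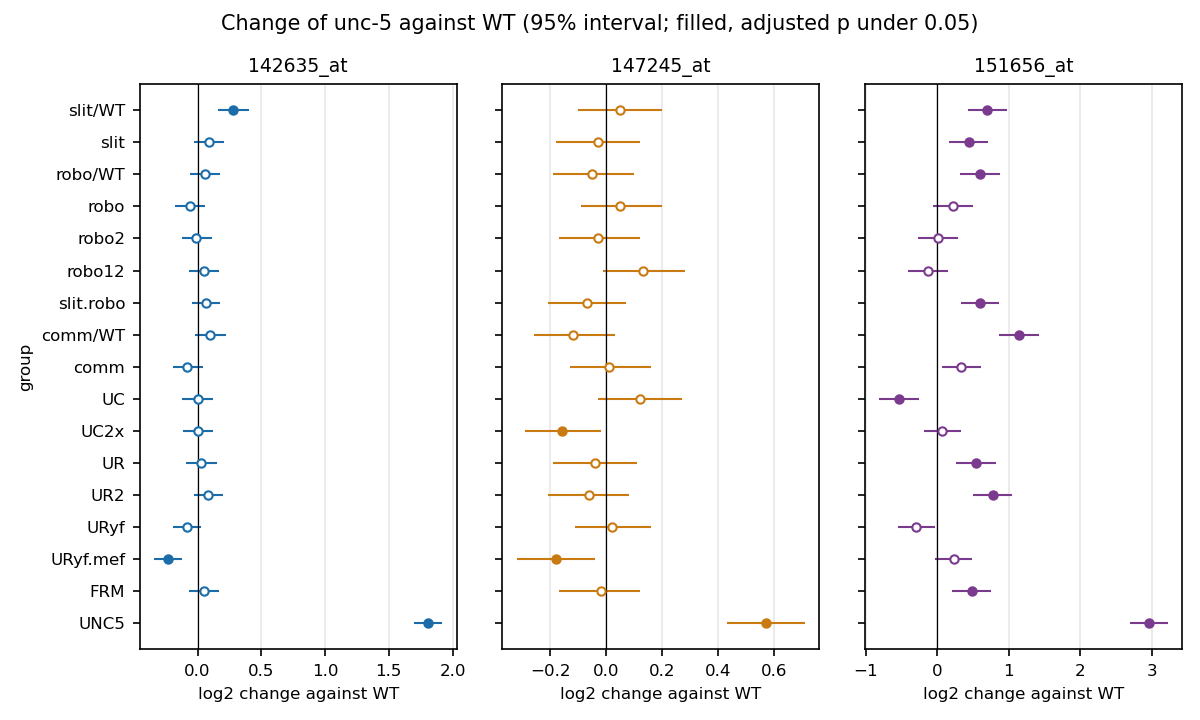
Log2 change of unc-5 against WT (x axis) in 17 groups (y axis) at each probe set, with the 95% interval of the fit; filled points passed an adjusted p of 0.05, and the x scales differ. UNC5 stands at 1.81, 0.57 and 2.96, while the other 16 groups lie between -0.23 and 0.28 at 142635_at, -0.18 and 0.13 at 147245_at, and -0.54 and 1.14 at 151656_at.

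Outside UNC5, unc-5 moved little at 2 of its probe sets and more at the third. The 17 other group means spanned 0.51 at 142635_at (11.22 to 11.73), 0.31 at 147245_at (9.60 to 9.91) and 1.68 at 151656_at (8.05 to 9.73). All 3 differed among these 17 groups by the moderated F test in limma (adjusted p = 5.8e-08, 0.0026 and 3.4e-17 in that order), as did 97.2% of all probe sets, so this call is the rule on the array.

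At 142635_at the other groups formed a near-continuous series. In rising order the means ran from URyf.mef (11.22 ± 0.08, SD, n = 5) through URyf (11.37), comm (11.37), robo (11.39), robo2 (11.44), UC (11.44), WT (11.45 ± 0.13, n = 5), UC2x (11.45), UR (11.48), robo12 (11.50), FRM (11.50), robo/WT (11.51), slit.robo (11.52), UR2 (11.53), slit (11.54) and comm/WT (11.54) to slit/WT (11.73 ± 0.06, n = 4). Of the 17 steps between neighbours in the order of all 18 groups, 15 were between groups whose arrays overlap. The exceptions were the step up to slit/WT (0.18) and the step from there to UNC5 (1.53). The slit/WT arrays measured 11.68, 11.69, 11.73 and 11.82, above every WT array, for a change of 0.28 ± 0.06 (1.22-fold, adjusted p = 5.3e-05 by limma). This call was kept in every alternative run. URyf.mef, with arrays at 11.10, 11.27, 11.19, 11.22 and 11.30, lay below every WT array, with a change of -0.23 ± 0.06 (1.17-fold, adjusted p = 0.0004 by limma). With the array SD as a covariate this change was -0.11 (adjusted p = 0.22).

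At 147245_at UNC5 was the only group that was separate from its neighbour, with a step of 0.44 above robo12. Its 16 other steps were between overlapping groups. The lowest means were those of URyf.mef (9.60 ± 0.09, n = 5) and UC2x (9.62 ± 0.13, n = 5), and the highest those of UC (9.90 ± 0.08, n = 4) and robo12 (9.91 ± 0.06, n = 4). Against WT (9.78 ± 0.13), the change was -0.18 ± 0.07 in URyf.mef (adjusted p = 0.019 by limma) and -0.16 ± 0.07 in UC2x (adjusted p = 0.046). Both groups overlapped WT. With the array SD as a covariate the values turned to 0.12 (adjusted p = 0.2) and 0.11 (adjusted p = 0.17). Without WT replicate 1 neither passed (-0.15, adjusted p = 0.077, and -0.12, adjusted p = 0.15), nor without WT replicate 5 (-0.16, adjusted p = 0.05, and -0.14, adjusted p = 0.1). The call in URyf.mef was also lost without its replicate 1 or 3 (both -0.16, adjusted p = 0.054 and 0.053). That in UC2x was lost without WT replicate 4 (-0.14, adjusted p = 0.091) and without UC2x replicate 2, 3 or 5 (-0.11, -0.14 and -0.16, adjusted p = 0.18, 0.095 and 0.054).

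At 151656_at the spread between groups was wider, and 9 of the 16 other groups were called against WT, 8 of them higher. This balance depended on the reference and on the array SD. There were 5 higher and 5 lower when the other groups' mean replaced WT as reference, and 3 higher and 4 lower (UC, UC2x, URyf and URyf.mef) with the array SD as a covariate. Against WT, the highest was comm/WT, with arrays at 9.84, 9.94, 9.53 and 9.59, a mean of 9.73 ± 0.20 (n = 4) and a change of 1.14 ± 0.14 (2.21-fold, adjusted p = 2.7e-10 by limma). UR2 followed at 9.36 ± 0.12 (change 0.78, adjusted p = 9.2e-06), with arrays at 9.36, 9.48, 9.41 and 9.20. The slit/WT group stood at 9.29 ± 0.17 (0.70, adjusted p = 1.7e-05), slit.robo at 9.18 ± 0.24 (0.60, adjusted p = 0.00013), robo/WT at 9.18 ± 0.22 (0.60, adjusted p = 0.00035) and UR at 9.12 ± 0.18 (0.54, adjusted p = 0.0018). In these 6 groups every array lay above every WT array. FRM (0.48, adjusted p = 0.0048) and slit (0.44, adjusted p = 0.01) were called higher with arrays that overlapped WT. UC, with arrays at 7.63, 8.20, 8.04 and 8.32, was called lower (-0.54, adjusted p = 0.0018) and also overlapped WT.

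Calls were common in these comparisons too. In comm/WT 54.5% of all probe sets were called and 21.1% higher, in UR2 37.7% and 16.6%, in slit/WT 62.7% and 25.2%, and in slit.robo 57.1% and 21.2%. In robo/WT they were 46.6% and 20.6%, in UR 33.2% and 14.4%, in FRM 40.8% and 17.4%, and in slit 40% and 15.8%. For the groups with unc-5 calls on the low side, 27.8% were called and 15.4% lower in UC, 58.9% and 34.7% in UC2x, and 65% and 40.7% in URyf.mef. In slit/WT and URyf.mef 2 of the 3 unc-5 probe sets passed, and in the other 9 of these groups 1 did. None passed in comm, robo, robo2, robo12 or URyf, where 27.4, 16.6, 25.6, 18.6 and 9.78% of all probe sets were called. In those 5 groups the 95% intervals against WT lay between -0.19 and 0.17 at 142635_at and between -0.17 and 0.28 at 147245_at. At 151656_at they were wider, from -0.55 to 0.61. Some of these passed under alternatives. URyf was lower at 151656_at with the array SD as a covariate (-0.29, adjusted p = 0.011 by limma) and when arrays that stand apart were left out (-0.43, adjusted p = 0.019), and robo12 was higher at 147245_at without those arrays (0.17, adjusted p = 0.047). With the mean of the other groups as reference, URyf (-0.65, adjusted p = 1.2e-07), robo12 (-0.48, adjusted p = 0.00019) and robo2 (-0.34, adjusted p = 0.01) were lower at 151656_at. URyf was lower at 142635_at (-0.11, adjusted p = 0.024) and robo12 higher at 147245_at (0.16, adjusted p = 0.013). All comparisons with WT share its 5 arrays.

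The order at 151656_at moved with measures of the arrays. Over the 17 groups without UNC5, its group means had a Pearson correlation of 0.66 with the array SD of log2 values, 0.62 with how far the GAPDH control's 3' probe set exceeded its 5' one and 0.63 with the like value of the actin control. These are descriptions over group means, in which every value comes from the same arrays. For 142635_at the same values were 0.20, -0.04 and -0.16, and for 147245_at they were -0.74, -0.40 and -0.46. This GAPDH difference, which is higher where the 5' part of transcripts is less well represented, was 2.28 in comm/WT and 2.19 in robo/WT, and lay between 1.57 and 1.92 elsewhere, with 1.71 in WT and 1.70 in UNC5. Within comm/WT, replicates 1 and 2 had GAPDH differences of 2.80 and 2.75 and unc-5 levels of 9.84 and 9.94 at 151656_at. Replicates 3 and 4 had 1.81 and 1.78, with unc-5 at 9.53 and 9.59.

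With the GAPDH difference as a covariate, a fit chosen after the data were seen, comm/WT was higher than WT by 0.90 at 151656_at (adjusted p = 8.9e-06 by limma), robo/WT by 0.40 (adjusted p = 0.043) and UNC5 by 2.96 (adjusted p = 1.2e-30). With the array SD as a covariate, the calls in FRM (0.11, adjusted p = 0.41), UR (0.21, adjusted p = 0.085), slit/WT (0.11, adjusted p = 0.43), slit (0.01, adjusted p = 0.96) and slit.robo (0.01, adjusted p = 0.96) were lost. Those in comm/WT (0.74, adjusted p = 3.7e-09), UR2 (0.42, adjusted p = 0.00048), robo/WT (0.27, adjusted p = 0.025) and UC (-0.48, adjusted p = 8.9e-06) were kept. UNC5 stood at 2.37 (adjusted p = 2.6e-30). The call in slit was also lost without WT replicate 1 (0.31, adjusted p = 0.082) or slit replicate 2 (0.37, adjusted p = 0.057). In a fit of only the groups compared, the calls in UC (-0.54, adjusted p = 0.069), FRM (0.48, adjusted p = 0.051) and slit (0.44, adjusted p = 0.081) were lost.

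**Figure D3:**
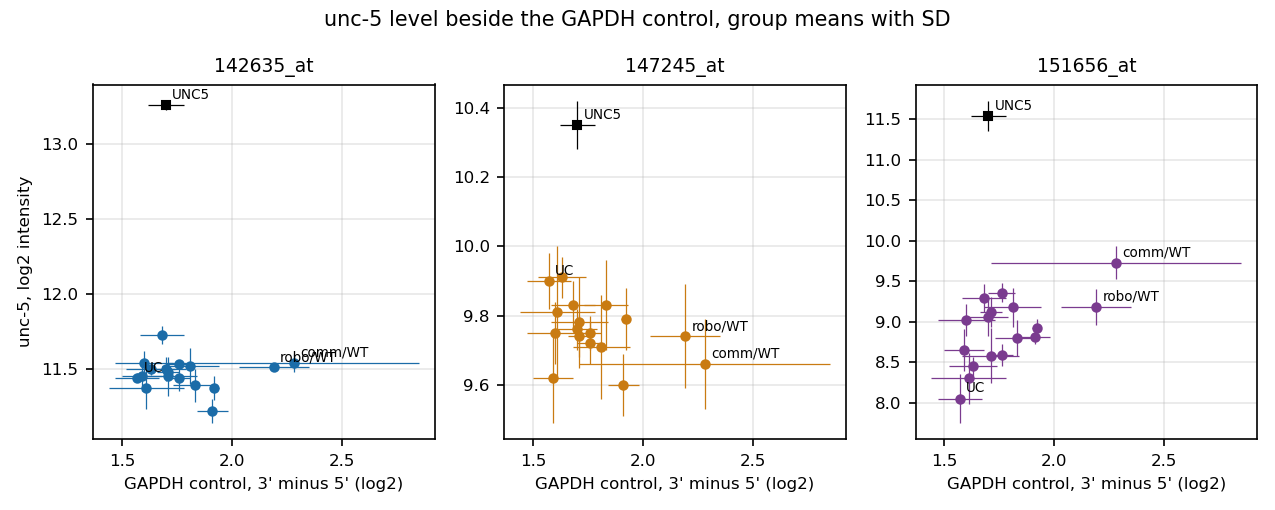
Group mean of unc-5 (y axis, log2 intensity) against the group mean of the GAPDH control's 3'-to-5' difference (x axis, log2) at each probe set, with SD bars; the square is UNC5. At 151656_at comm/WT (2.28, 9.73) and robo/WT (2.19, 9.18) lie to the right of the other groups, and UNC5 (1.70, 11.54) lies above them all.

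Between groups related by name, unc-5 was called in 8 of 17 comparisons, at 1 to 3 of its probe sets. In comm against comm/WT it was lower with a change of -0.81 ± 0.15 at 151656_at (1.75-fold, adjusted p = 2.5e-05 by limma), with comm arrays at 8.93, 8.86, 9.07 and 8.82, all below those of comm/WT. At 142635_at the change was -0.17 ± 0.06 (adjusted p = 0.038), a call lost without comm replicate 1 or 4 (-0.13 and -0.18, adjusted p = 0.16 and 0.065) or comm/WT replicate 2, 3 or 4 (-0.18, -0.15 and -0.16, adjusted p = 0.057, 0.091 and 0.079). That call was lost as well after quantile normalization (-0.13, adjusted p = 0.17) and in a fit of only the groups compared (-0.17, adjusted p = 0.052). At 147245_at the change was 0.13 (adjusted p = 0.22). Of all probe sets 21.8% were called in this comparison. In robo against robo/WT, where 29.1% were called, 151656_at stood at -0.38 (adjusted p = 0.041). This call was lost with the GAPDH covariate (-0.23, adjusted p = 0.31), the array SD as a covariate (-0.18, adjusted p = 0.16) or quantile normalization (-0.39, adjusted p = 0.056). It was also lost without robo replicate 2 or 3 (-0.34 and -0.30, adjusted p = 0.12 and 0.17) and without robo/WT replicate 3 or 4 (-0.36 and -0.28, adjusted p = 0.084 and 0.2). In slit against slit/WT, where 26.3% were called, 142635_at stood at -0.19 (adjusted p = 0.018), a call lost without slit replicate 3 or slit/WT replicate 4 (both -0.16, adjusted p = 0.078 and 0.075) or after quantile normalization (-0.13, adjusted p = 0.16). The 151656_at value was -0.27 (adjusted p = 0.17). The differences between comm, robo and slit in these changes did not pass at any probe set, with the lowest adjusted p = 0.067 by limma for comm against slit at 151656_at (-0.54 ± 0.21).

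In UC2x against UC and in URyf.mef against URyf, probe sets of unc-5 were called in opposite directions. UC2x lay above UC at 151656_at by 0.61 ± 0.14 (1.52-fold, adjusted p = 0.00012 by limma) and below it at 147245_at with a change of -0.28 ± 0.07 (1.21-fold, adjusted p = 0.00072), while 69.1% of all probe sets were called. URyf.mef lay above URyf at 151656_at (0.52, adjusted p = 0.0006) and below it at 142635_at (-0.15, adjusted p = 0.017) and 147245_at (-0.21, adjusted p = 0.008), while 65.6% were called. The array SD was 1.703 in UC, 1.797 in UC2x, 1.71 in URyf and 1.805 in URyf.mef. With it as a covariate none of these 5 calls was kept, and both 151656_at values and both 147245_at values changed sign. Without URyf replicate 2, an array that stands apart, URyf.mef against URyf stood at -0.11 at 142635_at (adjusted p = 0.099) and -0.12 at 147245_at (adjusted p = 0.11), and without URyf.mef replicate 1 at -0.12 at 142635_at (adjusted p = 0.068). URyf lay below UR at 151656_at with a change of -0.83 ± 0.14 (1.78-fold, adjusted p = 4.6e-06), where 28.1% were called, and this call was kept with either covariate. Of the 17 related comparisons, 4 were called at 142635_at, 3 at 147245_at and 7 at 151656_at, UNC5 against UR among them at each. The last count includes slit.robo against robo at 151656_at (0.38, adjusted p = 0.035, with 28.7% called), which was lost without robo replicate 2 or 3 or slit.robo replicate 1, 2 or 3 (0.30 to 0.38, adjusted p from 0.051 to 0.17).

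In the other 9 related comparisons none of the 3 unc-5 probe sets passed. Few probe sets of any gene did so in 4 of them, with 3.95% for robo against comm, 4.18% for FRM against UR, 5.84% for UR2 against UR and 7.15% for robo12 against robo. The share was 9.32% for robo2 against robo, 16.8% for robo12 against robo2, 16.9% for slit against comm, 17.2% for slit.robo against slit and 24% for slit against robo. The widest unc-5 difference among these 9 was at 151656_at in robo12 against robo (-0.35 ± 0.15, 95% interval -0.64 to -0.06, adjusted p = 0.13 by limma). Some of the 9 passed under alternatives. With the array SD as a covariate, slit was higher at 142635_at than robo and than comm (both 0.20, adjusted p = 0.012 by limma). Without arrays that stand apart, slit against robo was higher at 151656_at (0.38, adjusted p = 0.032) and lower at 147245_at (-0.18, adjusted p = 0.038).

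Of the rest of the netrin system, NetB rose in UNC5 and the receptors did not pass in the fit without covariates. NetB, a secreted ligand, measured 11.25, 11.16, 11.27, 11.06 and 11.15 in UNC5 and 10.31, 9.96, 9.98, 10.06 and 9.76 in WT, with no overlap. Its change was 1.16 ± 0.10 (2.24-fold, adjusted p = 4.4e-16 by limma), but NetB was called higher in all 17 groups and UNC5 ranked 12 of 18 from the low end. The attractive receptor fra measured 10.87, 11.10, 11.13, 10.82 and 10.88 in UNC5 and 10.09, 11.23, 11.02, 11.37 and 11.11 in WT, where replicate 1 is far below the others. Its change was -0.01 ± 0.13 (adjusted p = 0.97), but with the array SD as a covariate fra was lower (-0.43, adjusted p = 0.0074 by limma), and without arrays that stand apart it was at -0.22 (adjusted p = 0.065). Dscam1, a cell surface protein that also binds netrin, changed by -0.13 ± 0.06 (adjusted p = 0.065), and Trim9, a ubiquitin ligase that acts with Frazzled, stood at 11.65 in both groups. So 1 of 4 measured genes passed, higher, beside 21.1% of all named genes called higher and 33.8% lower. Against the mean of the other 17 groups, none of the 4 passed in limma. The list was chosen with results of these data known.

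Growth cone signalling genes were higher in UNC5 for 7 of 14 and lower for 1, with a median change of 0.19 beside -0.06 over all named genes. Of all named genes 21.1% were higher and 33.8% lower, and the counts of this and the following lists are to be read against those shares. The number of all named genes called higher, with the array SD as a covariate, went from 2287 to 1045 and of those called lower from 3662 to 1377. The total of calls did not shrink with it in the netrin, glial, and Slit and Robo lists. In the last of these, 2 genes were higher and 2 lower with it. The spectraplakin shot rose by 1.04 ± 0.08 (2.05-fold, adjusted p = 1.9e-18 by limma), ena, an actin regulator that promotes filament growth, by 0.54, Pak, a kinase downstream of Rac, by 0.49, and chic, the fly profilin, by 0.41. Ptp99A, a receptor phosphatase, fell by 0.20. With the array SD as a covariate 3 were higher (shot, ena and Abl) and 1 lower (otk, -0.29, adjusted p = 0.048 by limma). Pak (0.09, adjusted p = 0.61), chic (-0.1, adjusted p = 0.35) and Ptp99A (0.01, adjusted p = 0.96) did not pass with it. Against the mean of the other 17 groups, 6 growth cone genes were higher and 0 lower, beside 1530 and 1126 of all 10844 named genes. There shot stood at 0.34 (adjusted p = 3.8e-06), ena at 0.23 (adjusted p = 0.035), chic at 0.30 (adjusted p = 0.0024) and Pak at 0.09 (adjusted p = 0.45). In the Slit and Robo system, 2 of 7 genes were higher and 1 lower (median 0.04). The proteoglycan Sdc rose by 0.59, the repellent sli by 0.28, and comm2 fell by 0.16. The receptor robo1 (0.04, adjusted p = 0.6) and its regulator comm (-0.07, adjusted p = 0.23) did not pass. Against the mean of the other 17 groups, 0 of the 7 were higher and 2 lower, robo1 (-0.41, adjusted p = 3.3e-10) and comm3 (-0.12, adjusted p = 0.025). Of the other guidance ligands and receptors 3 of 11 were higher and 1 lower (median 0.06). The semaphorin Sema1a rose by 0.66, the receptors Eph by 0.33 and PlexB by 0.32, and hh, a morphogen that also guides migrating cells, fell by 0.19. With the array SD as a covariate 1 was higher (Sema1a) and 2 lower (hh and drl). Against the mean of the other 17 groups 1 was higher (Sema1a, 0.22, adjusted p = 0.026) and 2 lower (hh and Drl-2). Eph (0.08, adjusted p = 0.4) and PlexB (0.05, adjusted p = 0.67) did not pass there.

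Tissue markers were read beside unc-5, since the labels do not say where the transcript was raised. Glial genes were higher for 3 of 12 and lower for 1 in UNC5 (median -0.03). Nrg, a septate junction adhesion protein, rose by 0.73, the sodium pump subunit nrv2 by 0.48 and the junction protein Gli by 0.28, while loco, a G protein regulator, fell by 0.24. The master gene of glia, repo, was at 8.75 ± 0.07 in UNC5 and 8.80 ± 0.17 in WT (n = 5 each). Without arrays that stand apart 1 glial gene was higher and 2 lower. With the array SD as a covariate 1 was higher (Nrg) and 3 lower (gcm, wrapper and Nrx-IV). The values of nrv2 (-0.06, adjusted p = 0.82 by limma), Gli (-0.1, adjusted p = 0.41) and loco (0.01, adjusted p = 0.96) did not pass with it. Motor neuron genes were higher for 2 of 9 and lower for 3 (median -0.07), with zfh1 up by 1.13 and vvl by 0.39, and the transcription factors tup, HGTX and exex down by 0.26, 0.22 and 0.15. The count was 2 higher (zfh1 and vvl) and 0 lower with the array SD as a covariate. Against the mean of the other 17 groups 0 motor neuron genes were higher and 1 lower (exex, -0.09, adjusted p = 0.039 by limma). There zfh1 stood at 0.21 (adjusted p = 0.15) and vvl at 0.04 (adjusted p = 0.57). Heart genes were higher for 2 of 10 and lower for 2 (median -0.04), with prc, a matrix protein of the dorsal vessel, up by 0.35 and Sur by 0.22, and lbe and Ork1 down by 0.20 and 0.16. With the array SD as a covariate only Hand passed, lower (-0.44, adjusted p = 9.4e-05 by limma), which did not pass without it (-0.05, adjusted p = 0.69). The values of prc (0.17, adjusted p = 0.053), Sur (0.12, adjusted p = 0.39), lbe (-0.02, adjusted p = 0.91) and Ork1 (-0.06, adjusted p = 0.63) did not pass with it.

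Muscle genes were higher for 6 of 7 and lower for 0 (median 0.40). The troponin gene up rose by 1.06, the giant kinase bt by 0.89 (2.51 at its other probe set, 150988_at), the tropomyosin Tm2 by 0.63 and Prm, the paramyosin gene, by 0.40. The count was 4 higher with the array SD as a covariate, and bt was not among them (0.14, adjusted p = 0.54 by limma). Pan-neural genes were higher for 2 of 7 and lower for 1 (median 0.04). The neuronal marker elav rose by 1.12 ± 0.18 (adjusted p = 1.1e-06 by limma) from a WT level with an SD of 0.88, nSyb, a synaptic vesicle protein, by 0.19, and futsch, a microtubule protein of axons, fell by 0.29. With the array SD as a covariate elav (1.48) and ChAT (0.16, adjusted p = 0.049 by limma) were higher. With it nSyb (0.09, adjusted p = 0.46) and futsch (-0.03, adjusted p = 0.8) did not pass. Against the mean of the other 17 groups, higher and lower genes numbered 1 and 2 for glia, 1 and 1 for heart, and 5 and 0 for muscle. For pan-neural genes they numbered 1 and 1, and for all 10844 named genes 1530 and 1126. The UNC5 arrays had an SD of log2 values of 1.797 ± 0.010, against 1.711 ± 0.035 in WT. The part of these markers in the unc-5 values was not tested.

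**Figure D4:**
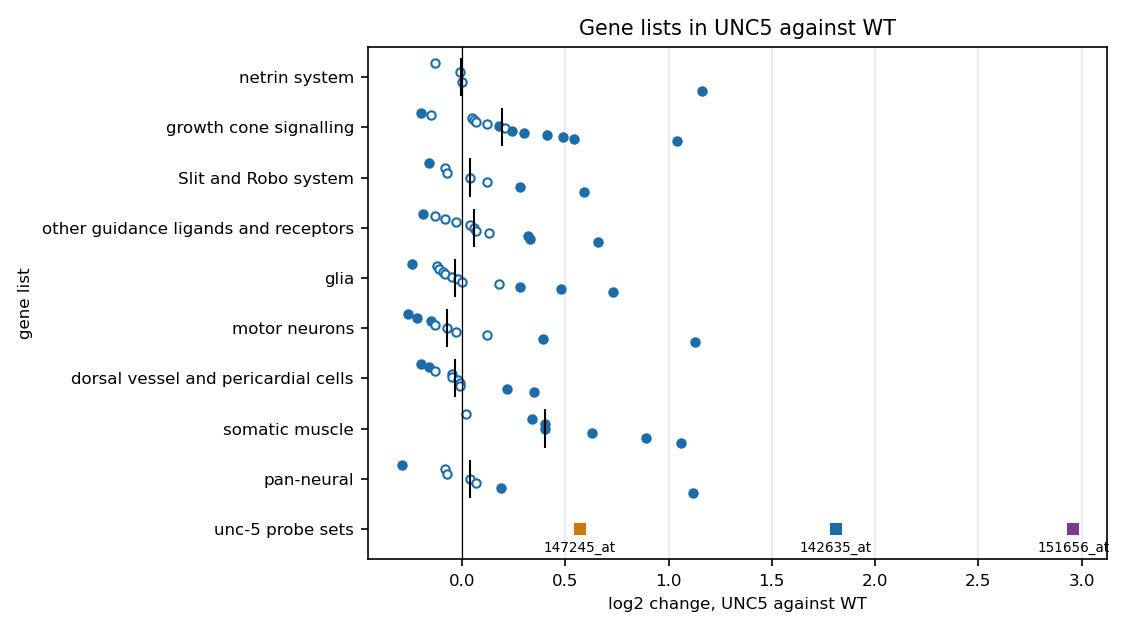
Log2 change in UNC5 against WT (x axis) of each measured gene (points, filled where the adjusted p was under 0.05) in 9 gene lists, with the median of each list as a bar, and of the 3 unc-5 probe sets (squares). 142635_at (1.81) and 151656_at (2.96) lie beyond the plotted value of every list gene, each shown by its brightest probe set, the highest of which is NetB at 1.16.

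Of 4 measured genes around unc-5 on the chromosome, 1 was higher in UNC5 than in WT, 1 was lower and 2 did not pass. Of all named genes 21.1% were called higher and 33.8% lower in this comparison, so these calls are not particular to the region. On the side of lower coordinates, Hr51, a nuclear receptor that ends at 15339384, fell by 0.17 ± 0.06 in UNC5 (adjusted p = 0.0079 by limma). CG8160, further out on that side, rose by 0.46 ± 0.08 (1.37-fold, adjusted p = 1.1e-06), and was higher by 0.40 than the mean of the other 17 groups (adjusted p = 5.9e-08). On the other side, Pms2, whose span overlaps unc-5, stood at 6.78 ± 0.12 in UNC5 and 6.70 ± 0.16 in WT (change 0.07, adjusted p = 0.3), and dup, a replication licensing factor 8 genes away, at 8.75 and 8.65 (adjusted p = 0.26). The CG8160 change lay near that of 147245_at and below those of 142635_at and 151656_at.

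Genes with a pattern like unc-5 were sought among 6775 genes above percentile 40 of mean level, by the Pearson correlation of group means with 142635_at. Over all 18 groups, where the UNC5 mean dominates, the highest was GstE2, a glutathione transferase (0.858), at 10.25 in UNC5 and between 9.22 and 9.56 elsewhere. It was followed by Rpt2, a proteasome ATPase (0.693), CG6094 (0.686), CG8839 (0.649), CG5854 (0.619), GstE3, another glutathione transferase (0.615), parvin, an adhesion protein of integrin sites (0.603), mRpL45 and Jhbp4 (both 0.593) and pyd3 (0.587). Each was also called higher in UNC5 against WT, from 0.19 (mRpL45) to 0.95 (GstE3 and Jhbp4). Since the measure follows that group, these values are a description.

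Over the 17 groups without UNC5, the 10 most similar genes were other ones, with 0 shared. They were pbl, which acts in cytokinesis (0.793), gry (0.79), CG42342 (0.786), Slc45-1 (0.781), fusl (0.764), Sptz (0.752), kat80, a katanin subunit (0.747), nompB, an intraflagellar transport protein (0.746), CG18249 (0.742) and pxb (0.741). Like 142635_at, 6 of the 10 (pbl, gry, CG42342, Slc45-1, nompB and pxb) were lowest in URyf.mef and highest in slit/WT, as gry was with 9.44 and 10.05. The genes that ran most opposite were LysS, a digestive lysozyme (-0.734), CG2921 (-0.703), Cyp6d4 (-0.68), TotE and CG2200 (both -0.677). LysS was at its lowest in slit/WT (12.71) and at its highest in URyf.mef (13.36). Since all these genes were picked by their correlation with 142635_at over the same 17 groups, shared or opposite extremes come with the choice. These values too are a description.

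Beside unc-5, named genes were ranked by their change in UNC5 against WT, each at its brightest probe set only. The highest were Jon99Fi (2.80 ± 0.28, with a WT SD of 1.64), bol, a translation regulator of the testis (2.0), and aqz (1.99). CG34166 (1.96) and the drosomycin-like peptide gene Drsl5 (1.89) followed. The muscle gene bt stood at 2.51 at 150988_at, which is not its brightest probe set and so was not ranked. The lowest were Uhg1, a host of small nucleolar RNAs (-1.77), the ecdysone-inducible ImpL1 (-1.14), neo (-0.97), CG14960 (-0.96) and Syt7 (-0.95). Against the mean of the other 17 groups, bol stood at 0.74, aqz at 0.47, CG34166 at 0.72, Drsl5 at 0.65 and Uhg1 at -0.72. The change of unc-5 at 142635_at was 1.81 against WT and 1.79 against the other groups.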

How the data were processed

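Gene expression was measured on Affymetrix arrays in whole stage 15 embryos. The authors deposited 1 table of intensity values on a linear scale for 78 arrays, made with RMA per the submitters' processing notes, which name no version. Log2 was taken first. Of 14010 probe sets, 44 Affymetrix controls were left out. Names came from the platform annotation, updated to RefSeq by Entrez identifier for 12394 of 12443 probe sets with 1 name (327 had several, 1196 none). The probe set with the highest mean stands for a gene, except for unc-5, where all 3 are given.

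With limma 3.58.1 (R 4.3.3), each probe set was given a mean for each of the 18 groups over the 78 arrays (60 residual degrees of freedom), with two-sided tests, Benjamini-Hochberg adjustment over all 13966 probe sets within each comparison and a threshold of 0.05. Differences between probe sets were tested by exact permutation. The fit was tested on simulated data. Plots used Python 3.11.15 and matplotlib 3.10.9.

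Named genes were the netrin system, genes most like unc-5, its neighbours, the 5 highest and 5 lowest changes in UNC5, and up to 4 called members of each of 9 lists. The members and lists were chosen with earlier results of these data known. For same-numbered replicates of different groups, the median correlation of deviations from the group means was 0.01, against 0 for other-numbered ones. Of the 627 same-numbered pairs 28.9% exceeded 0.1, and this share was not computed for the others. The arrays were treated as unpaired. A median over all pairs cannot show pairing in only some groups, which was not tested. Alternatives were a replicate block, quantile normalization, a fit of the compared groups alone, array weights, dropping probe sets under percentile 40 of mean level, the array SD as a covariate, leaving out 6 arrays whose SD lay over 0.05 from their group's median, each array left out in turn, and another reference. The GAPDH covariate, and the list counts under 2 of these settings, were added after seeing the data. No sequence of unc-5 was used here.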

Additional observations from a re-analysis of the deposited data

Results flagged for a closer look

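Among 62 sets of arrays examined for 1 array far from the rest, of which chance would single out about 1 in 20, 2 held such an array. At 147245_at, robo replicate 4 had an unc-5 level of 9.64, with the nearest of the other 3 arrays at 9.89. This array also stands apart by its SD of log2 values, and without it the robo change against WT remained uncalled at that probe set. For fra, WT replicate 1 had 10.09 and the nearest WT array 11.02. It is another of the arrays that stand apart.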

How the results depend on the processing

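In UNC5, unc-5 kept its direction and its call at each probe set under every alternative that gave a value. Against WT the change was between 1.63 (quantile normalization) and 1.91 (array SD as a covariate) at 142635_at, from 0.56 to 0.84 at 147245_at and from 2.37 to 2.96 at 151656_at. Leaving out each array in turn gave 1.77 to 1.86, 0.52 to 0.60 and 2.83 to 3.03. Probe set 151656_at lies below percentile 40 of mean level and has no value without dim probe sets.

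The number of the 16 other groups called against WT at 142635_at (1 higher and 1 lower) became 4 with array weights or the array SD and 5 without arrays that stand apart. With the array SD all 4 were higher. At 147245_at (2, both lower) it became 1 with quantile normalization, array weights, the GAPDH covariate or only the compared groups, and 4 with the array SD or the mean of the other groups as reference. With the array SD all 4 were higher, namely FRM, slit, slit.robo and slit/WT (0.32, adjusted p = 5.6e-05 by limma), and neither of the 2 lower calls was kept. With the other reference 2 were higher and 2 lower. Leaving out a WT array gave 2 to 3, 0 to 2 and 9 to 11 at 142635_at, 147245_at and 151656_at, with 0 at 147245_at without WT replicate 1 or 5.

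Of the 17 related comparisons, calls at 142635_at (4) became 2 with quantile normalization or only the compared groups and 8 with array weights or the array SD. At 147245_at (3) they became 5 with array weights or without arrays that stand apart, and at 151656_at (7) 3 with the array SD. Leaving out each array gave 3 to 7 (7 without robo replicate 1), 2 to 4 and 5 to 7.

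With the array SD as a covariate, 12 values that passed the test with or without it changed sign. At 147245_at against WT they were FRM (0.15), UC2x (0.11), URyf.mef (0.12), slit (0.17) and slit.robo (0.20), with UC2x against UC (0.02) and URyf.mef against URyf (0.09). At 151656_at they were UC2x (-0.51) and URyf.mef (-0.41) against WT, UC2x against UC (-0.03), URyf.mef against URyf (-0.12) and slit.robo against robo (-0.07). With the mean of the other groups as reference, UC2x (-0.27) and robo2 (-0.34) turned to lower calls at 151656_at. Values that passed in neither fit also changed sign, 0 to 19 per setting. The cause was not tested.

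With the replicate number as a block, UNC5 against WT stood at 1.81 (adjusted p = 1.4e-36 by limma), 0.57 and 2.96, and the counts of calls were 2, 2 and 9 against WT and 4, 3 and 7 between related groups, as without it. The numbers of arrays per group and the dim level of 151656_at limit the precision.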
